A study of Mus musculus with 12 samples.

Results

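Conditional Sub1 knockout B cells from mouse spleen were compared with control cells for how strongly each gene responded to a culture that drives differentiation. The quantity described is a difference of differences, called the interaction below: the response (stimulated minus resting) of the knockout cells minus the response of the control cells, on a log2 scale. A positive interaction means that the change from resting to stimulated cells was more upward in the knockout, and a negative one that it was more downward. It was computed for 22981 features (12295 named genes and 10686 probes without a gene name) of 55681 non-control probes, and 33 features passed the test (limma, Benjamini-Hochberg adjusted p under 0.05), which is 0.144% of those tested. Of these, 12 had a positive interaction (0.0522%) and 21 a negative one (0.0914%), and 24 of the 33 were named genes.

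The contrast was built from 4 groups of 3 arrays each. Control mice, the source of both the control resting and the control stimulated cells, were B1-8hi:Sub1fl/fl. Knockout mice were B1-8hi:Sub1fl/fl-Mb1-Cre, again with resting and stimulated cells. B1-8hi is a rearranged heavy chain knock-in that gives antibodies against the hapten NP, and both genotypes carried it together with the floxed Sub1 alleles. Mb1-Cre is a recombinase inserted in Cd79a that is active from early B cell development. Only the knockout carried it, so Sub1 loss, Cre and reduced Cd79a cannot be told apart. Stimulated cells had spent 72 h in a culture with CD40 ligand, NP-ficoll and the interleukins IL-2, IL-4 and IL-5, and resting cells had received no differentiation stimulus. No label states that replicates were separate animals. The p-values therefore reflect only how far these samples varied, and that variation may in part be technical. On the arrays of control replicate 1 alone, in both states, the Y-linked genes Ddx3y and Eif2s3y were high and Xist was low. The spread of the control arrays thus includes a difference in sex markers and is not technical alone.

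Levels below are log2 intensities relative to the 75th percentile of each array, given for replicates 1, 2 and 3 in that order, and n is 3 per group throughout. Between 24.3% and 76.8% of the spots of an array were well above background and none was saturated. Precision is limited by the number of arrays. Replicates 1 and 2 of every group lay on slide 1 and replicate 3 on slide 2. Over all features the median interaction was 0.08, with the 5th percentile at -1.19 and the 95th at 1.22, and the median standard error was 0.45. The smallest interaction that passed the test in this setting was 1.79.

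SUB1, also called PC4, binds single-stranded DNA and acts both as a transcriptional coactivator and as a component of chromatin. B cells that receive antigen, CD40 ligand and interleukins first divide and then may become antibody-secreting plasma cells. The transcription factors IRF4, BLIMP-1 (Prdm1) and XBP1 drive that change. PAX5, BCL6 and BACH2 hold the B cell state. Secretion on that scale needs an enlarged endoplasmic reticulum with its chaperones, translocon and vesicle coats. It also draws on amino acid supply through the ATF4 pathway. Interferon gamma, by contrast, induces IRF1 and the interferon-inducible GTPases in B cells.

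The targeted gene had a smaller rise in the knockout, but the difference did not pass the test. Sub1 read 6.07, 6.02 and 6.0 in control resting and 8.19, 7.79 and 8.15 in control stimulated cells. It read 5.37, 5.80 and 5.77 in knockout resting and 6.72, 6.87 and 6.92 in knockout stimulated cells. All 3 knockout arrays lay below all 3 control arrays in both states. The interaction was -0.82 (SE 0.27, adjusted p = 0.269; slides -0.74 and -1.0). A second, dimmer probe of Sub1 gave 0.96, and averaging both probes turned the value to 0.07, so the direction rests on the brighter probe. The labels do not name the floxed exons, so whether either probe lies in the deleted part is not known, and a probe outside it checks nothing. Cd79a, the B cell receptor signalling chain whose locus carries the Cre, read 4.75, 4.66 and 4.26 in control resting and 3.95, 3.37 and 3.70 in control stimulated cells. In the knockout it read 3.05, 3.0 and 2.99 at rest and 3.0, 2.35 and 2.38 after stimulation, below every control array of the same state. Its interaction was 0.45 (SE 0.34, adjusted p = 0.732), and the slides gave 0.70 and -0.05, of opposite sign.

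Most features that responded to stimulation had a smaller mean response in the knockout, on both sides. With the mean of both genotypes, 4326 features rose (18.8%) and 3258 fell (14.2%) after stimulation (limma, adjusted p under 0.05). Of those that rose, 70.6% rose less in the knockout, and of those that fell, 81.5% fell less. Over all features, 56.7% had an interaction above 0, and the control response was the larger one in 14202 of 22981. Among the 2025 that rose by at least 2-fold, the median response was 1.79 in control and 1.37 in knockout cells. Among the 1591 that fell by at least 2-fold, it was -1.80 and -1.21. These shares describe point values and carry no test. In the control 6397 features changed with stimulation (27.8%) and in the knockout 3692 did (16.1%). The share that rose less ran from 61.9% to 72.4% over other scalings of the arrays. It was 59.0% without control stimulated replicate 1 and 79.3% without control stimulated replicate 2.

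**Figure D1:**
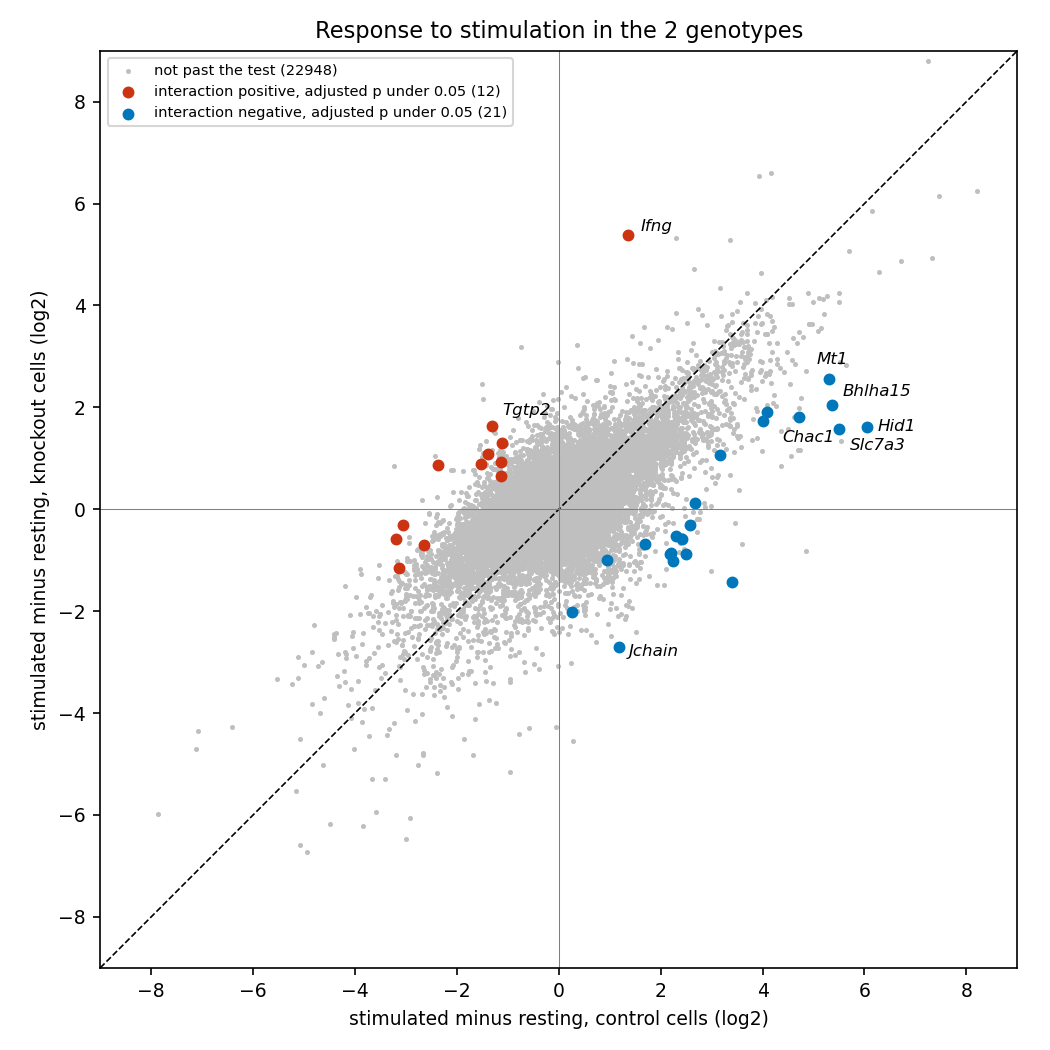
Response to stimulation (stimulated minus resting, log2) in control cells (x axis) and knockout cells (y axis) for the 22981 features tested. Grey points did not pass the test of the interaction, red points are the 12 features with a positive and blue points the 21 with a negative interaction, and the dashed line marks equal responses. The blue points lie to the right of the line, all at responses above 0 in control cells. Ifng stands alone among the red ones at a response of 5.38 in the knockout.

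Of the 21 features with a negative interaction, 19 rose with stimulation in the control, and the other 2 did not pass that test. In the knockout, 8 of the 21 rose, 4 fell and 9 did not pass. In all 21 the knockout mean was above the control mean at rest and below it after stimulation. Of the 12 with a positive interaction, 11 fell with stimulation in the control and 1, Ifng, rose. In the knockout, 7 of the 12 rose, 2 fell and 3 did not pass. In all 12 the knockout mean was above the control mean after stimulation. The response was the larger one in the control for 27 of the 33 and for 14202 of all 22981 features. Over all features, 3386 rose and 3011 fell with stimulation in the control, and 2498 rose and 1194 fell in the knockout. The genotype difference changed sign between the states in 6425 of them. The knockout mean was above the control mean after stimulation in 11265. The 33 were picked on these same group means, so such patterns partly follow from that choice.

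Among the named genes that passed the test, Hid1 had the largest negative interaction. Hid1 encodes a Golgi protein that is needed for secretory granule maturation. Its level was -1.73, -1.67 and -1.41 in control resting and 4.75, 3.66 and 4.95 in control stimulated cells. In the knockout it was 0.31, 0.23 and -0.66 at rest and 1.39, 1.25 and 2.12 after stimulation. The groups did not overlap, and knockout cells started higher and ended lower. Hid1 rose 66.7-fold in the control and 3.08-fold in the knockout, an interaction of -4.44 (SE 0.55, adjusted p = 0.0247; slides -4.86 and -3.59).

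Bhlha15 encodes MIST1, a transcription factor of secretory cells that plasma cells express. It read -0.52, -0.65 and -0.07 in control resting and 5.32, 4.46 and 5.09 in control stimulated cells. The knockout arrays read 0.48, 1.21 and 0.48 at rest and 2.64, 2.52 and 3.17 after stimulation. Again the 4 groups did not overlap, and the rise was 41.4-fold in the control and 4.15-fold in the knockout. The interaction was -3.32 (SE 0.43, adjusted p = 0.0282; slides -3.74 and -2.49).

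Jchain encodes the joining chain that links IgM and IgA into polymers, and it moved in opposite directions. Control cells read 5.58, 5.20 and 5.85 at rest and 6.49, 6.22 and 7.46 after stimulation. Knockout cells read 6.87, 7.24 and 6.84 at rest and 4.09, 3.51 and 5.23 after stimulation. Every resting knockout array was thus above every resting control array, and every stimulated knockout array below every stimulated control array. The fall in the knockout passed the test (-2.71, SE 0.44, adjusted p = 0.00201) and the control difference of 1.18 did not (adjusted p = 0.0708). The interaction of -3.88 (SE 0.62) lay just inside the threshold (adjusted p = 0.0497; slides -4.22 and -3.22).

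Slc7a3, Chac1 and Nupr1, all listed here as targets of the amino acid stress factor ATF4, also had negative interactions. Slc7a3 encodes a transporter of arginine and lysine. It was not well above background on any resting array of either genotype, so its interaction of -3.93 (SE 0.50, adjusted p = 0.0282) is given with no fold. After stimulation it read 1.70, 1.39 and 1.26 in control cells and -2.72, -1.27 and -1.80 in knockout cells, where 2 of 3 arrays were above background. Chac1 encodes an enzyme that degrades glutathione. It read -2.48, -1.58 and -2.32 in control resting, 2.92, 1.98 and 2.87 in control stimulated, -2.09, -2.02 and -1.82 in knockout resting and -0.33, -0.19 and 0.00 in knockout stimulated cells. The resting groups overlapped and the stimulated groups did not. At rest, 2 control and 1 knockout array were above background. The rise of Chac1 was 26.3-fold in the control and 3.49-fold in the knockout (interaction -2.92, SE 0.43, adjusted p = 0.0427).

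Nupr1 encodes a small nuclear protein induced by cell stress. Its level was -2.22, -1.75 and -1.85 in control resting and 0.73, 0.54 and 0.66 in control stimulated cells. The knockout levels were 0.28, -0.67 and -0.79 at rest and -0.88, -0.66 and -0.55 after stimulation. It rose 5.99-fold in the control (adjusted p = 7.31e-05), while the knockout states overlapped (-0.30, adjusted p = 0.57). Its interaction was -2.89 (SE 0.39, adjusted p = 0.0333; slides -3.19 and -2.27), and 2 of 3 control resting arrays were above background.

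The promoters of Chac1 and Nupr1 are shown because they hold the 8-base element that ATF4 binds together with C/EBP factors. The windows are 120 bases of RefSeq promoters (mouse build GRCm38.p6), written 5′ to 3′ on the strand of the gene. Capitals mark TTGCATCA and, in Nupr1 only, also TTCNNNGAA (N is any base), searched on both strands with no overlap between the marked matches.
Chac1, chr2:119350993-119351112, strand +: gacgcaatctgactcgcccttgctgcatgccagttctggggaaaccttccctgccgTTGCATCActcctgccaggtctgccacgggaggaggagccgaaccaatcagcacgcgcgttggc
Nupr1, chr7:126625526-126625645, strand -: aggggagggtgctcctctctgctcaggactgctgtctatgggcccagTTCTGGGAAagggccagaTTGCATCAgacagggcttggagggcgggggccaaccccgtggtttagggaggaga
Of the 16 named genes with a negative interaction, 11 had a promoter in the RefSeq table, and 2 of their 14 promoters (14.3%) held TTGCATCA, against 0.895% of all 32851 promoters. Each promoter covers 250 bases before the start and 50 after it. A match is a description of the letters and not evidence of binding.

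The other named genes with a negative interaction belonged to several functions. Mt1, a metallothionein that binds zinc and copper, rose 39.3-fold in the control and 5.89-fold in the knockout. It read 0.34, 0.80 and 0.65 in control resting, 6.25, 5.88 and 5.55 in control stimulated, 1.90, 2.65 and 2.57 in knockout resting and 4.72, 5.38 and 4.71 in knockout stimulated cells. No 2 of these groups overlapped, and the interaction was -2.74 (SE 0.41, adjusted p = 0.0427). Plcd1, a phospholipase C, read -3.05, -2.35 and -2.78 in control resting and -0.29, -0.19 and -0.20 in control stimulated cells. It read -0.74, -0.01 and -1.31 in knockout resting and -1.68, -1.35 and -1.65 in knockout stimulated cells. Knockout cells were thus above control cells at rest and below them after stimulation (interaction -3.37, SE 0.44, adjusted p = 0.0282). Only 1 control resting array and 2 arrays of each stimulated group measured Plcd1 above background. With normexp background correction the interactions of Plcd1, Nupr1 and Slc7a3 shrank to -1.49, -1.67 and -2.40.

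Ckb, the brain form of creatine kinase, had an interaction of -3.06 (SE 0.45, adjusted p = 0.0427), and its second probe gave -2.90. The mTORC2-associated gene Prr5l had -2.56 (SE 0.39, adjusted p = 0.0444). It rose 6.42-fold in the control, while its knockout response was 0.12 (adjusted p = 0.855). Endou, an endoribonuclease gene, had -2.38 (SE 0.36, adjusted p = 0.0428). Its resting groups overlapped between the genotypes, and its stimulated groups did not. Slamf9, a SLAM family receptor, fell 4.04-fold in the knockout (adjusted p = 0.000442), and its control response was 0.26 (adjusted p = 0.519; interaction -2.28, SE 0.35, adjusted p = 0.045). Plpp5, a phospholipid phosphatase, rose 16.1-fold in the control and 3.35-fold in the knockout (interaction -2.27, SE 0.34, adjusted p = 0.0428). The remaining named genes were Tmem37 (-2.18), the potassium channel gene Kcnk6 (-2.10) and Avpi1 (-1.93).

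Among the 33 features that passed, the largest negative value came from a probe without a gene name, A_55_P2066173, at -4.82 (SE 0.72, adjusted p = 0.0427). Another unnamed probe, A_55_P2112302, had -3.25 (SE 0.40, adjusted p = 0.0247). In all, 5 of the 21 features with a negative interaction were unnamed. Tnfrsf17, which encodes the plasma cell survival receptor BCMA, had the largest negative value of all features tested and missed the threshold. It read -2.75, -2.95 and -2.96 in control resting and 1.75, 1.20 and 2.95 in control stimulated cells. It read -0.94, -0.37 and -1.20 in knockout resting and -2.19, -2.81 and 0.06 in knockout stimulated cells. The 3 stimulated knockout values were spread over a wide range, and the interaction was -5.66 (SE 0.93, adjusted p = 0.0582; slides -6.17 and -4.65). Only 1 control resting and 2 knockout stimulated arrays measured it above background.

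**Figure D2:**
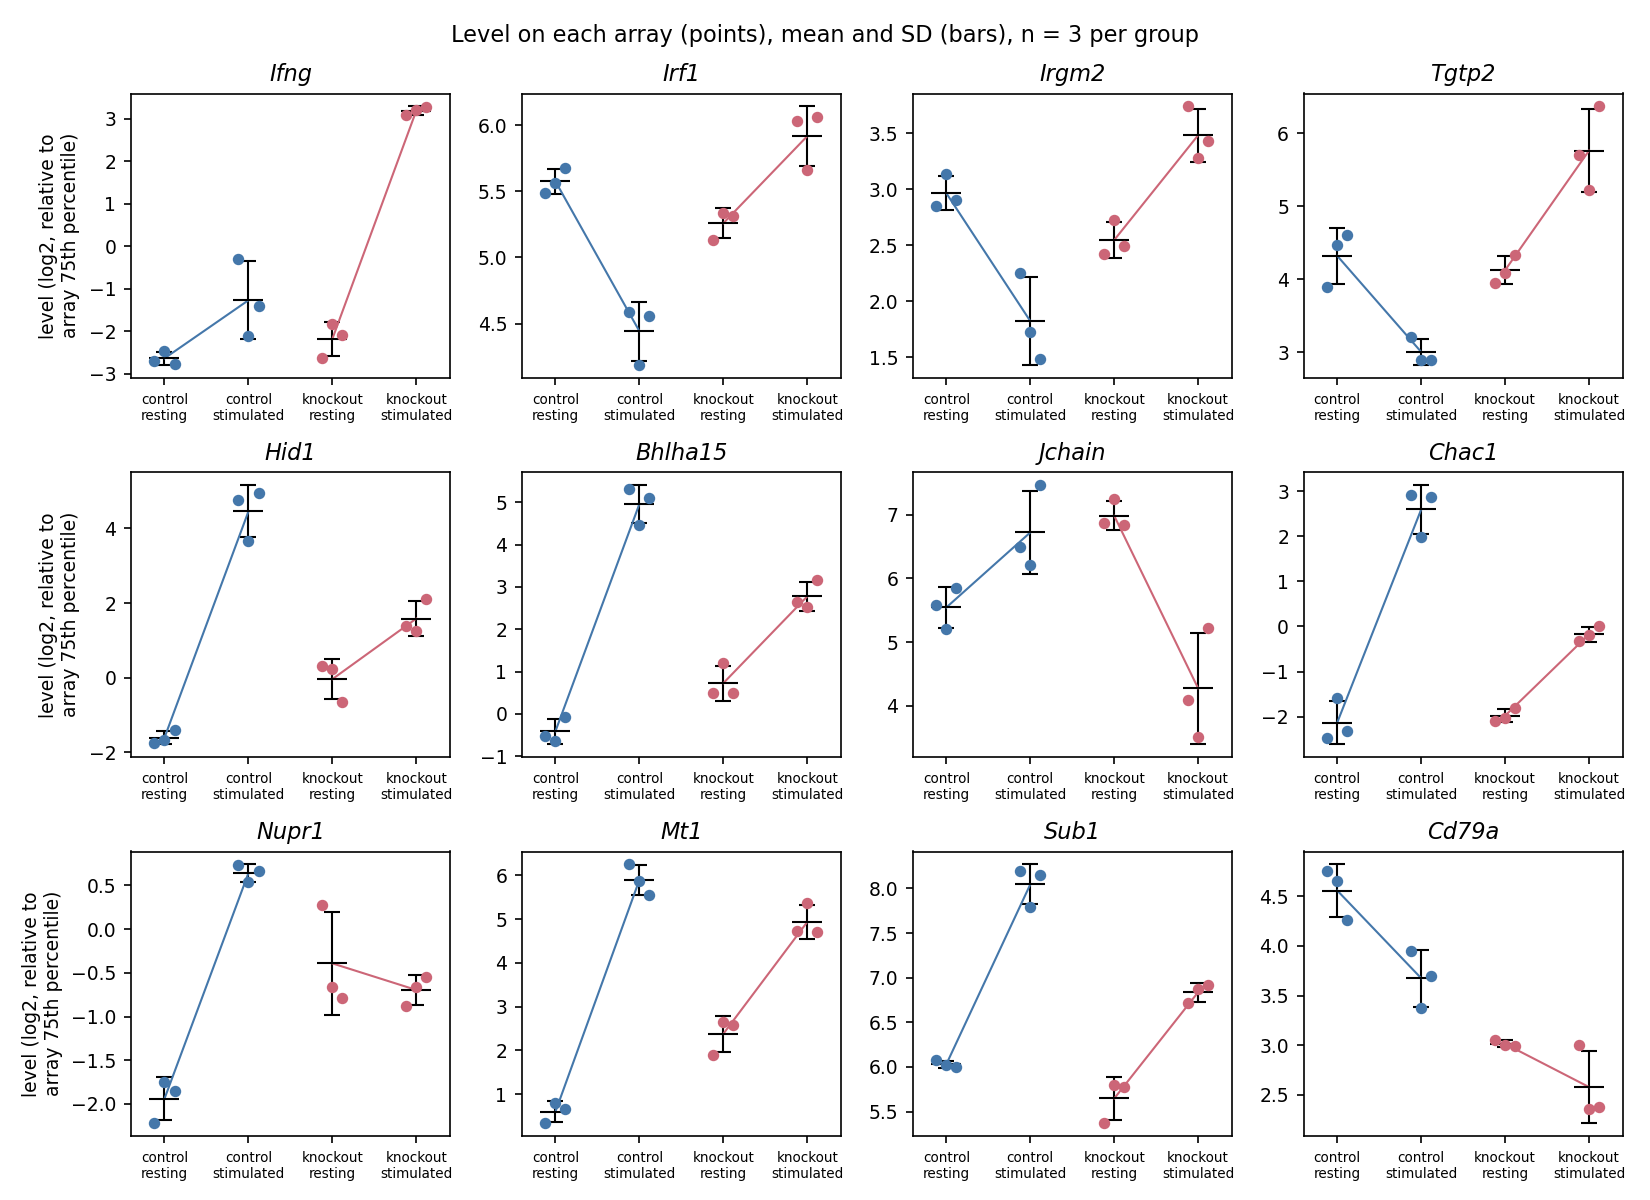
Level (log2 intensity relative to the 75th percentile of the array) of 12 genes on each array, with 3 points per group, the group mean and SD as bars, and a line from the resting to the stimulated mean of control (blue) and knockout (red) cells. The knockout mean is higher after stimulation for Ifng, Irf1, Irgm2 and Tgtp2, and for the last 3 it is lower at rest. For Hid1, Bhlha15, Jchain, Nupr1 and Mt1 the knockout mean is higher at rest and lower after stimulation. Sub1 and Cd79a, whose interactions did not pass the test, lie lower in the knockout in both states.

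The largest positive interaction belonged to Ifng, the gene of interferon gamma itself. It read -2.69, -2.46 and -2.77 in control resting and -0.30, -2.12 and -1.41 in control stimulated cells. Knockout cells read -2.62, -1.82 and -2.10 at rest and 3.09, 3.21 and 3.29 after stimulation. The 3 stimulated knockout arrays lay close together and above every other array, while the resting groups overlapped. Ifng rose 2.58-fold in the control (adjusted p = 0.023) and 41.5-fold in the knockout (adjusted p = 3.05e-05), an interaction of 4.01 (SE 0.55, adjusted p = 0.0333). The slides gave 4.0 and 4.02. In each of the other 3 groups, 2 of 3 arrays were above background.

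Irf1, Irgm2 and Tgtp2 fell in the control and rose in the knockout. Irf1, a transcription factor induced by interferon gamma, read 5.49, 5.57 and 5.67 in control resting, 4.58, 4.19 and 4.56 in control stimulated, 5.13, 5.33 and 5.31 in knockout resting and 6.03, 5.66 and 6.06 in knockout stimulated cells. It fell 2.19-fold in the control and rose 1.58-fold in the knockout (interaction 1.79, SE 0.27, adjusted p = 0.0427; slides 1.75 and 1.86). Irgm2, an immunity-related GTPase, read 2.85, 3.14 and 2.90 in control resting, 2.25, 1.73 and 1.49 in control stimulated, 2.42, 2.73 and 2.49 in knockout resting and 3.74, 3.27 and 3.43 in knockout stimulated cells. For both genes, knockout arrays were below all control arrays at rest and above them after stimulation. The interaction of Irgm2 was 2.08 (SE 0.33, adjusted p = 0.0459).

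Tgtp2, another GTPase of this family, read 3.89, 4.46 and 4.61 in control resting and 3.21, 2.90 and 2.90 in control stimulated cells. It read 3.95, 4.08 and 4.33 in knockout resting and 5.70, 5.22 and 6.37 in knockout stimulated cells. The resting groups overlapped, and after stimulation the knockout was 6.77-fold higher (interaction 2.96, SE 0.42, adjusted p = 0.0408; slides 2.56 and 3.74). Tgtp1 is a near-identical copy that may share its signal, so which of the pair was measured is uncertain. Serpinb9, which encodes an inhibitor of granzyme B, read -0.65, -1.06 and -1.11 in control resting and -2.29, -2.13 and -1.76 in control stimulated cells. It read -1.21, -0.55 and -0.95 in knockout resting and 0.24, 0.56 and 0.38 in knockout stimulated cells. It fell in the control and rose in the knockout (interaction 2.42, SE 0.33, adjusted p = 0.0333), and 1 control stimulated and 2 knockout resting arrays measured it above background.

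These promoters are shown because they hold elements through which interferons act. TTCNNNGAA is the palindrome of the interferon gamma activated site, and GAAANNGAAA is the interferon stimulated element that interferon regulatory factors bind. Capitals mark them, and the Serpinb9 match is on the opposite strand.
Irf1, chr11:53769868-53769987, strand +: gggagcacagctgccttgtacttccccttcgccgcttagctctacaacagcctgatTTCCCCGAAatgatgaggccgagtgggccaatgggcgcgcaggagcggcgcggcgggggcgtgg
Irgm2, chr11:58214852-58214971, strand +: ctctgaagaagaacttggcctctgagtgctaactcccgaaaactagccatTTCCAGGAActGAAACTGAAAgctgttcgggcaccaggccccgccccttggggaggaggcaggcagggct
Tgtp2, chr11:49064224-49064343, strand -: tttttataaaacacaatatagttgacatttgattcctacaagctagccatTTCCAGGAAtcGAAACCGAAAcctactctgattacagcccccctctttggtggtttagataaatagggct
Ifng, chr10:118440796-118440915, strand +: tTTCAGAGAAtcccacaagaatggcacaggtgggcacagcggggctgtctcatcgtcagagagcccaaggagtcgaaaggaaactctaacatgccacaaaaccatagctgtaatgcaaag
Serpinb9, chr13:33004421-33004540, strand +: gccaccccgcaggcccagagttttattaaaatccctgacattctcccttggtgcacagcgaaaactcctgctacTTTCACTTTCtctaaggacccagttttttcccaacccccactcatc
Of the 8 named genes with a positive interaction, 7 had a promoter in the table. TTCNNNGAA was in 4 of their 8 promoters (50%), against 8.3% of all promoters, and GAAANNGAAA in 3 (37.5%), against 3.44%. Both elements lie side by side in Irgm2 and Tgtp2, from -75 to -55 and from -81 to -61 relative to the start site. The other 2 genes with a promoter in the table held neither element there.

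The other named genes with a positive interaction were Jade2, Zmat1 and Afp. Of the named genes that passed with a positive interaction, only Ifng, Irf1 and Irgm2 were on the interferon lists used. Jade2, a PHD finger protein gene, read 4.80, 4.47 and 4.41 in control resting, 2.0, 1.56 and 2.22 in control stimulated, 3.58, 3.87 and 3.86 in knockout resting and 3.15, 3.0 and 3.03 in knockout stimulated cells. It fell 6.21-fold in the control and 1.64-fold in the knockout (interaction 1.93, SE 0.30, adjusted p = 0.0444; slides 2.20 and 1.37). Zmat1, a zinc finger gene, fell 8.78-fold in the control and 2.23-fold in the knockout (interaction 1.98, SE 0.31, adjusted p = 0.0459). Only 1 control stimulated and 2 knockout stimulated arrays measured Zmat1 above background, and its second probe gave 1.23. For both genes the knockout was lower at rest and higher after stimulation, with no overlap. Afp, the fetal serum protein alpha-fetoprotein, read 0.11, -0.45 and -0.34 in control resting and -2.60, -2.23 and -2.96 in control stimulated cells. It read -2.59, -1.76 and -1.43 in knockout resting and -1.07, -1.26 and -0.82 in knockout stimulated cells. The fall in the control passed the test, and the knockout difference of 0.88 did not (adjusted p = 0.0913; interaction 3.25, SE 0.45, adjusted p = 0.0333). Only 1 control stimulated and 2 knockout resting arrays measured Afp above background. With normexp background correction the interactions of Afp, Serpinb9 and Zmat1 shrank to 1.53, 1.16 and 1.19, and the adjusted p of Serpinb9 and Zmat1 rose to 0.0563 and 0.057.

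The remaining 4 features with a positive interaction were unnamed probes. The array annotation places A_30_P01022266 at chr3:21964899-21974524 and A_30_P01032887 at chr3:21973306-21974266, both on the reverse strand of mm9, so the intervals overlap and the probes may not be independent. No gene annotation of that build was used here, so what lies there is not given. They fell 8.38-fold and 9.1-fold in the control, where 1 of 3 stimulated arrays measured each above background, and their knockout responses of -0.31 and -0.58 did not pass the test. The interactions were 2.75 (SE 0.38, adjusted p = 0.035) and 2.60 (SE 0.30, adjusted p = 0.0247).

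Marker genes of natural killer, T and myeloid cells were measured in the same samples, and the natural killer and cytotoxic sum was highest in the group where Ifng was highest. In a bulk sample, fewer cells of a type and less RNA per cell cannot be told apart. The summed level of 12 natural killer and cytotoxic markers ran from 4.09 to 4.42 in control resting, 5.33 to 5.41 in control stimulated, 4.85 to 5.27 in knockout resting and 7.87 to 8.83 in knockout stimulated cells. The 3 arrays with the highest sums were also those with the highest Ifng. The sums are of linear intensities, so the brightest members weigh most. In knockout stimulated cells these were the granzymes Gzma and Gzmb, which made up most of the sum. None of the 12 passed the interaction test, and 7 had a positive interaction at an unadjusted p under 0.05 and none a negative one, with a list median of 1.20. Gzma, a granzyme, read 4.62, 4.45 and 4.43 in control stimulated and 7.17, 7.28 and 8.35 in knockout stimulated cells (interaction 2.43, SE 0.96, adjusted p = 0.386; slides 3.34 and 0.62). Gzmb read 2.76, 2.65 and 2.94 against 5.92, 5.65 and 6.19 (1.55, SE 0.58, adjusted p = 0.355; slides 2.32 and 0.01). The stimulated groups did not overlap for either granzyme. Nkg7 had the smallest p of the list (1.54, SE 0.34, adjusted p = 0.116).

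Among markers that define these cells, Ncr1 was above background on 1 of 3 control stimulated and on 3 of 3 knockout stimulated arrays. Klrb1c was so on 2 and 3, Cd3e on 2 and 3, Cd3d and Cd3g on 1 and 3 each, and Cd8a on 0 and 2. Of all non-control spots, 36.6%, 24.3% and 60.1% were above background in control stimulated and 64.5%, 42.6% and 76.8% in knockout stimulated cells. The counts of these markers cannot be read apart from that difference. Of the natural killer list, 11 members had an interaction above 0 and 1 below, from -0.10 for Klrb1c to 2.43 for Gzma. Of the T cell list, 8 members had an interaction above 0 and 4 below, from -0.63 to 1.36. Over all features, 56.7% had an interaction above 0. Among the T cell markers, Lck, a kinase of T cell receptor signalling, had the smallest p (interaction 1.29, SE 0.34, adjusted p = 0.179), and Cd3e had 0.28 (adjusted p = 0.974).

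The summed level of 12 T cell markers ran from 5.82 to 6.13 in control stimulated and 6.37 to 6.58 in knockout stimulated cells, against 3.94 to 4.27 and 3.95 to 4.75 at rest. Myeloid markers, 17 tested, summed to 6.14 to 6.68 and 3.94 to 5.02 in control resting and stimulated cells and to 7.20 to 7.57 and 5.54 to 5.75 in knockout cells. The sum over 9 B cell markers was 10.17 to 10.36 and 9.44 to 9.92 in control and 9.69 to 9.98 and 9.52 to 9.72 in knockout cells. The median interaction was 0.48 for the T cell list and 0.84 for the myeloid list. At an unadjusted p under 0.05, 1 T cell marker was positive and none negative, and 4 myeloid markers were positive and 1 negative. None of their members passed the adjusted test. On the probes detected on all 12 arrays, 3 of the T cell and 4 of the myeloid list, the medians turned to -0.57 and -0.11, with normexp background correction they were 0.12 and 0.16, and on slide 2 they were -0.18 and 0.02. The T cell sum rose from rest to stimulation in both genotypes and the myeloid sum was lower after it in both, and knockout cells had the higher myeloid sum in both states. The part of any of these cells in the Ifng, Irf1, Irgm2, Tgtp2 and Serpinb9 results was not tested.

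**Figure D3:**
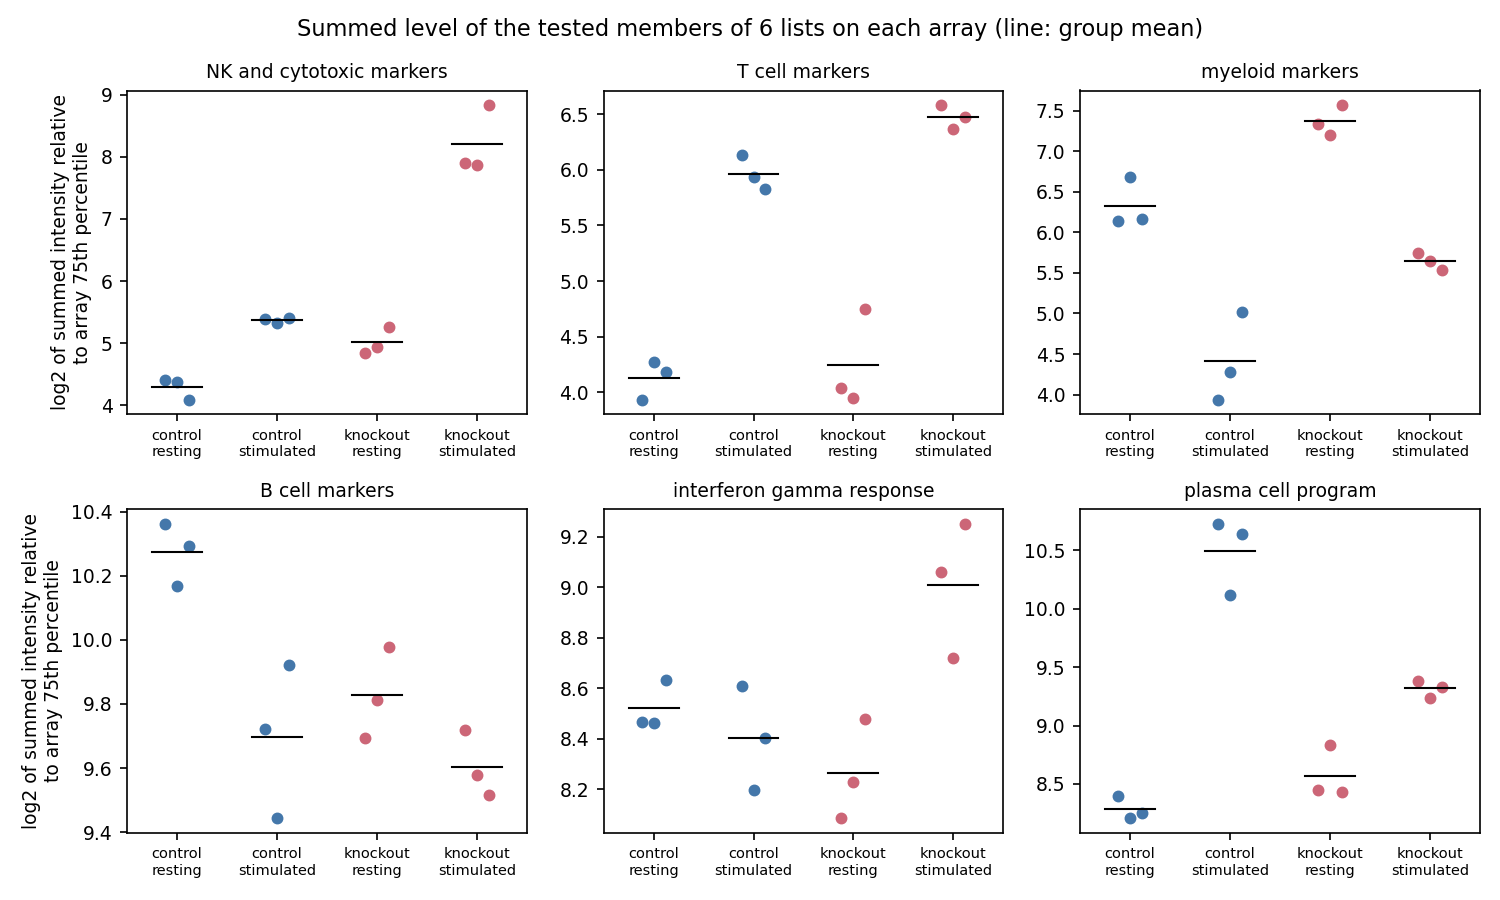
Summed level of the tested members of 6 lists on each array (log2 of the summed intensity relative to the 75th percentile of the array), with 3 points per group and a line at the group mean. The natural killer and cytotoxic sum stands at 7.87 to 8.83 in knockout stimulated cells and at 5.41 or below in the other groups. The plasma cell sum stands at 10.12 to 10.73 in control stimulated and 9.24 to 9.38 in knockout stimulated cells.

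The gene lists place the 33 features among genes of like function. The lists were chosen with earlier results of these data known, so the counts describe the members and are not independent support. At an unadjusted p under 0.05, 2445 features had an interaction (10.6%), 1534 positive (6.68%) and 911 negative (3.96%). List counts below use that threshold, beside the number that passed the adjusted test, and no list carries a test of its own. Members named only for their list or their levels were picked after their values were seen, except the member with the smallest p.

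Lists of the secretory route had negative medians. In the plasma cell program, 13 of 17 members were negative at that threshold and none positive, with a median of -1.34, and Jchain was the only one to pass the adjusted test. Xbp1, a driver of secretory expansion, rose by 3.0 in control and 1.99 in knockout cells (interaction -1.0, SE 0.31, adjusted p = 0.255). Derl3, a component of ER-associated degradation, had -2.43 (SE 0.45, adjusted p = 0.0674). Of 23 ER chaperones, 16 were negative and none positive, with a median of -1.0 and none past the adjusted test. Sdf2l1 had the smallest p among them. It read 1.93, 1.80 and 1.74 in control resting, 5.55, 4.80 and 5.15 in control stimulated, 1.87, 2.28 and 2.03 in knockout resting and 3.80, 3.60 and 3.74 in knockout stimulated cells. Its resting groups overlapped and its stimulated groups did not (interaction -1.69, SE 0.30, adjusted p = 0.0669).

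The promoter of Hspa5, which encodes the chaperone BiP, is shown for the element that ATF6 binds with NF-Y, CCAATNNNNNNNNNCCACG. Capitals mark it and the core TGACGTG of a second element of the unfolded protein response.
Hspa5, chr2:34771928-34772047, strand +: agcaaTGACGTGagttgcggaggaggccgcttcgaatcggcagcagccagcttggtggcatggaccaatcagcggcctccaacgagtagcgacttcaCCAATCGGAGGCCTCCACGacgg
The longer element was in 9 of the 21 promoters (42.9%) of 20 ER chaperones that the table holds, against 0.119% of all promoters. Hspa5 read 6.44, 6.38 and 6.29 in control resting, 8.23, 7.77 and 8.01 in control stimulated, 5.86, 6.41 and 6.10 in knockout resting and 6.67, 6.93 and 6.70 in knockout stimulated cells. It rose by 1.63 in the control, and the knockout difference of 0.64 did not pass the test (interaction -0.99, SE 0.28, adjusted p = 0.211).

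Of 30 genes of the translocon and vesicle coats, 19 were negative at that threshold, with a median of -0.97 and none past the adjusted test. All 30 had a value below 0, while 56.7% of all features had one above 0. Sec24d, a subunit of the COPII coat, read -3.11, -1.69 and -2.13 in control resting and 2.90, 2.0 and 1.83 in control stimulated cells. It read -0.53, -0.30 and -1.46 in knockout resting and 0.30, 0.26 and 0.30 in knockout stimulated cells. It rose by 4.55 in the control, against 1.05 in the knockout, where the test was not passed (interaction -3.51, SE 0.60, adjusted p = 0.0614). In control resting cells, 2 of 3 arrays measured it above background.

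Metabolic lists had negative medians as well. Of 23 genes of the ATF4 response, 13 were negative and none positive (median -0.86), and 3 passed the adjusted test, namely Slc7a3, Nupr1 and Chac1. The factor itself, Atf4, had -0.53 (adjusted p = 0.513), and Ddit3, which encodes its partner CHOP, had 0.21 (adjusted p = 0.92). Of 21 cholesterol synthesis genes, 11 were negative and none positive (median -0.83). Hmgcs1, an early enzyme of that route, rose by 2.11 in control and 1.10 in knockout cells (interaction -1.01, SE 0.25, adjusted p = 0.162). Of 23 genes of glycolysis and hypoxia, 9 were negative and none positive (median -0.70). Vegfa, a hypoxia-induced growth factor gene, had the smallest p of that list (interaction -2.80, SE 0.47, adjusted p = 0.0609) and was not well above background on any control resting array.

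Genes of growth and division had medians nearer that of all features. The median was -0.23 for 22 genes of MYC and ribosome biogenesis (4 negative, none positive), -0.14 for 20 of oxidative phosphorylation (none in either direction), -0.16 for 25 of DNA replication (1 negative) and -0.18 for 22 of mitosis (1 negative). The replication and mitosis medians turned sign in 2 and 3 of 27 other settings. The median response of the DNA replication genes was 2.42 in control and 2.20 in knockout cells, and that of the mitosis genes 3.54 and 3.20. None of the members of these 4 lists passed the adjusted test. The members with the smallest p were Srm (-1.24), Sdhb (-0.25), Gins1 (-0.82) and Foxm1 (-1.19).

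Genes of the B cell state had positive medians of the interaction. The median knockout minus control difference of the mature B cell identity list was -0.57 at rest and -0.02 after stimulation. For the B cell markers it was -0.53 and 0.05, and over all features -0.21 and -0.02. Of 25 genes of mature B cell identity, 9 were positive and 1 negative (median 0.65). The negative one was Pou2af1, a coactivator of immunoglobulin genes, which had the smallest p (-1.28, SE 0.25, adjusted p = 0.0837). It read 6.51, 6.35 and 6.28 in control resting, 7.91, 7.54 and 7.82 in control stimulated, 6.45, 6.58 and 6.56 in knockout resting and 6.45, 6.63 and 6.80 in knockout stimulated cells. The control stimulated arrays stood above all the others. Cr2, the complement receptor CD21, had responses of -7.86 in control and -5.99 in knockout cells (interaction 1.87, SE 0.54, adjusted p = 0.211). Its resting levels were 7.57, 7.21 and 6.63 in the control and 5.24, 5.52 and 5.38 in the knockout, and its stimulated levels overlapped. The 9 B cell markers had a median of 0.67, with 2 positive and none negative. Slides 1 and 2 gave medians of 0.91 and 0.12 for these markers, and 0.81 and 0.33 for mature B cell identity.

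For 17 activation surface molecules the median was 0.47 (6 positive, 2 negative). Icosl, the ligand of the T cell costimulator ICOS, had responses of -5.53 in control and -3.34 in knockout cells (interaction 2.19, SE 0.40, adjusted p = 0.0672). For 17 NF-kB subunits and targets it was 0.65 (6 positive, 1 negative), for 19 quiescence factors 0.29 (6 positive, none negative) and for 13 immediate early genes 0.46 (4 positive, none negative). Egr1, an immediate early transcription factor gene, had 1.87 (SE 0.38, adjusted p = 0.0889). For 18 genes of class switch and germinal centre the median was 0.00 (3 positive, 2 negative), and its sign turned in 14 of 27 settings. No member of these lists passed the adjusted test. On slides 1 and 2 the medians were 0.60 and 0.24 for activation molecules and 0.74 and 0.18 for NF-kB genes. They were 0.52 and -0.01 for quiescence factors and 0.643 and 0.315 for immediate early genes. For class switch and germinal centre they were -0.11 and -0.01.

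Interferon gamma response genes had the highest median of the lists outside the markers of other cells, 0.97 over 23 members. Of these, 14 were positive and none negative, and Ifng, Irf1 and Irgm2 passed the adjusted test. The guanylate-binding protein genes followed close to the threshold. Gbp2 read 2.29, 2.39 and 2.20 in control resting, 2.85, 2.18 and 3.0 in control stimulated, 2.46, 2.44 and 2.48 in knockout resting and 5.51, 4.62 and 5.60 in knockout stimulated cells. Only the stimulated knockout arrays stood apart (interaction 2.40, SE 0.41, adjusted p = 0.0609). Gbp4 had 2.13 (adjusted p = 0.0609), Gbp5 2.20 (adjusted p = 0.0648) and Irgm1 1.95 (adjusted p = 0.0804). Among the promoters of this list that the table holds, 36.8% held TTCNNNGAA and 47.4% GAAANNGAAA.

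The type I interferon list had a median of 0.94 over 22 members, with 9 positive, 2 negative and none past the adjusted test. It was 0.47 with normexp background correction and 0.44 on the probes detected on all 12 arrays, where 6 members remained. Its summed level was not higher in stimulated knockout cells (5.89 to 6.29) than in stimulated control cells (6.0 to 6.61), and the ranges overlapped. The sum of the interferon gamma list was 8.72 to 9.25 in stimulated knockout and 8.20 to 8.61 in stimulated control cells, without overlap. The other lists were the lysosome (0.05, with 23 tested), p53 targets (-0.17, with 13) and chromatin compaction (-0.09, with 17). In these, 1 member was positive, the linker histone gene H1f10 (2.41, SE 0.77, adjusted p = 0.266), and none negative. Markers of dendritic cells had a median of -0.58 over 8 members (1 positive, 1 negative). Erythroid markers had -0.95 over 6 (1 negative) and platelet markers -0.33 over 7 (none in either direction). None of these passed the adjusted test.

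**Figure D4:**
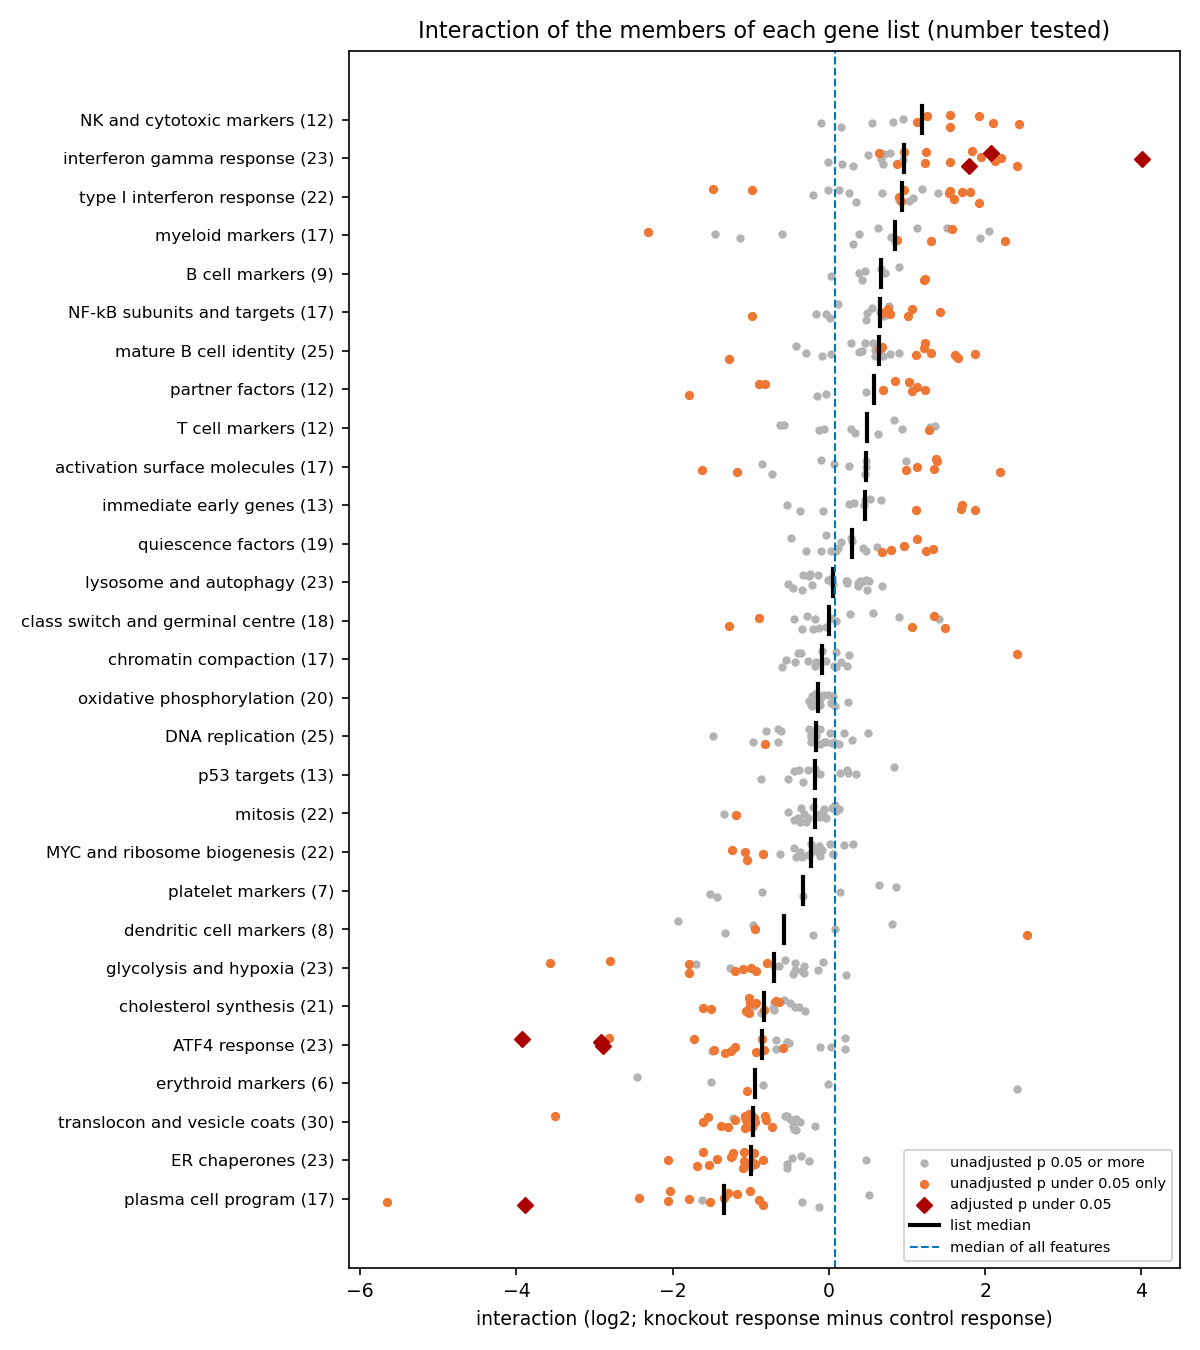
Interaction (log2) of each tested member of the 29 lists, ordered by the list median (black bar), with the number tested in brackets and the median of all features as a dashed line at 0.08. Orange points had an unadjusted p under 0.05 and red diamonds an adjusted p under 0.05. The plasma cell, chaperone, translocon, ATF4, cholesterol and glycolysis lists lie left of the line, and the interferon gamma and natural killer lists lie farthest to the right.

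The title of the study names IKAROS and IRF4 as partners of PC4, so 12 factors of this network were followed. None passed the adjusted test. Prdm1, which drives plasma cell fate, read -1.13, -0.71 and -0.86 in control resting and 3.98, 3.54 and 3.67 in control stimulated cells. In the knockout it read -0.94, 0.08 and -0.76 at rest and 2.25, 2.33 and 2.35 after stimulation, below every stimulated control array. Its interaction was -1.79 (SE 0.38, adjusted p = 0.102). Irf4 read 3.62, 3.27 and 3.34 in control resting, 6.07, 5.24 and 5.77 in control stimulated, 2.81, 2.88 and 2.90 in knockout resting and 4.36, 4.08 and 4.30 in knockout stimulated cells. The knockout was lower in both states, and more so after stimulation (interaction -0.90, SE 0.32, adjusted p = 0.322).

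Factors of the B cell state had positive values. Bach2 had 1.13 (adjusted p = 0.246), Bcl6 1.07 (adjusted p = 0.376) and Pax5 1.22 (adjusted p = 0.384). Pax5 had 1.76 on slide 1 and 0.16 on slide 2, and its second probe gave 0.14. Ikzf1, which encodes IKAROS, read 2.79, 2.68 and 2.91 in control resting, 2.07, 1.63 and 2.14 in control stimulated, 2.18, 2.47 and 2.70 in knockout resting and 1.95, 2.22 and 2.05 in knockout stimulated cells. The stimulated groups overlapped, and the interaction was 0.47 (SE 0.29, adjusted p = 0.638). Its relative Ikzf3, which encodes AIOLOS, had 1.02 (adjusted p = 0.344), Irf8 had 0.84 (adjusted p = 0.299) and Spib 0.69 (adjusted p = 0.391). Batf and Spi1 had -0.03 and -0.16 (adjusted p = 0.999 and 0.958), and the sign of Batf turned in 9 settings and that of Spi1 in 1.

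The number of features that passed depended on the setting. With a block for replicate, 19 of the 33 still passed, and the calls of Ifng, Irgm2, Chac1 and Nupr1 were among those that ended. The 33 had been picked for large values over these same arrays, so their common sign on slides 1 and 2 and in other settings follows from that choice and is no sign of stability. Relative to the spots detected on all arrays in place of all spots, 317 features passed, 177 positive and 140 negative, so that 55.8% were positive against 36.4% here. With 1 array left out, none passed without control resting replicate 1, 2 or 3, knockout resting replicate 1 or 2, or knockout stimulated replicate 1 or 2. There were 1 without control stimulated replicate 1, 4 without knockout resting replicate 3 and 12 without knockout stimulated replicate 3. There were 30 without control stimulated replicate 3 and 130 without control stimulated replicate 2. In the fits with none, between 1876 and 2145 features had an unadjusted p under 0.05. Among 21 named genes followed, a call held in between 8 settings (Zmat1) and 17 settings (Hid1) of up to 28.

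**Figure D5:**
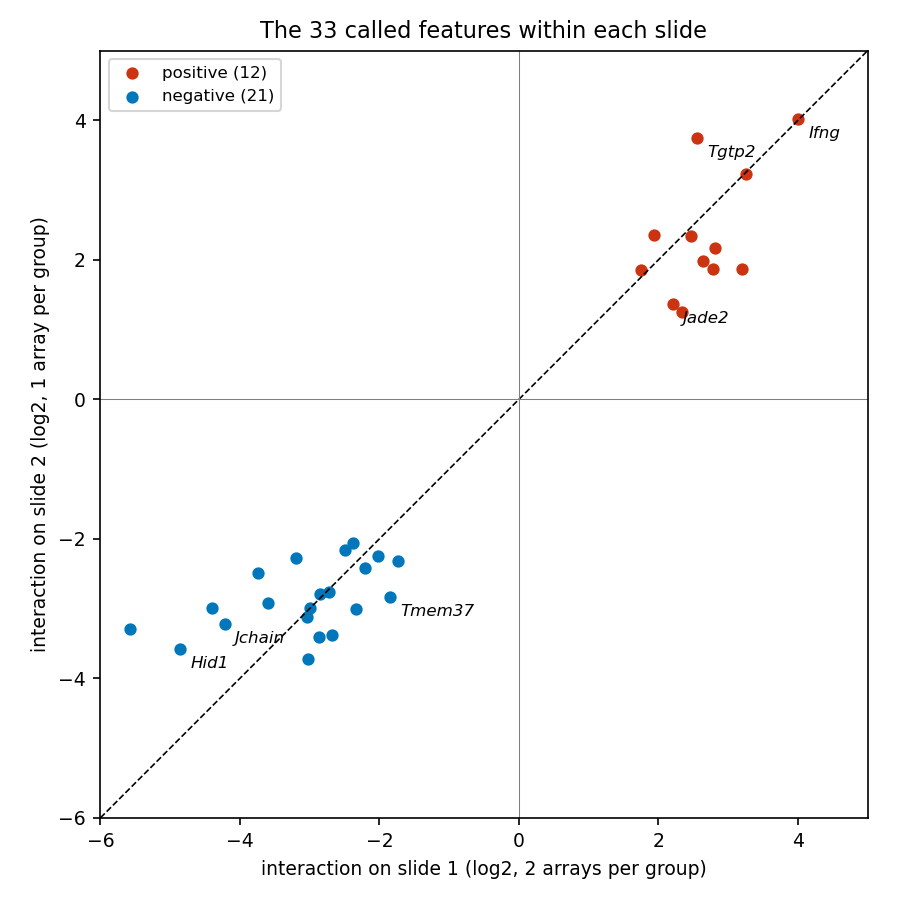
Interaction (log2) of the 33 features on slide 1 (x axis, 2 arrays per group) and slide 2 (y axis, 1 array per group), with positive values in red and negative values in blue and a dashed line of equal values. All points lie in the quadrants where both slides have the same sign, and Ifng lies on the line at 4.0 and 4.02.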

How the data were processed

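Splenic B cell RNA from 4 groups (3 samples each) was amplified, labelled with Cy3 and hybridised to 12 one-colour Agilent mouse arrays, per the labels. The deposited values used are linear processed signal intensities, background-subtracted by the authors with Agilent Feature Extraction 10.7.3.1 per the file headers (9.1 per the submitters' processing notes). The other deposited columns (probe names, annotation, flags and the series matrix rounding the same intensities) were used to name, filter and check.

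After outlier spots had been left out, each log2 value was set against the 75th percentile of its array (control spots excluded), and repeat spots were averaged per probe. A probe was kept where all 3 arrays of at least 1 group were well above background. Names came from the accession in the array annotation through RefSeq gene records (GRCm38.p6), which named 26413 of 55681 probes, and the probe brightest on average stood for a gene. Group means were fitted with limma 3.58.1 (R 4.3.3, data.table version 1.17.8; 8 residual degrees of freedom), and the interaction was adjusted over all features by Benjamini-Hochberg. Every adjusted p is limma's. A missing value drops only that array for that feature, and none of the features named has one. The fit was tested on simulated data.

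The rule names Sub1, Cd79a, up to 12 called genes per direction measured in every group, called genes with a group below background, up to 4 called members per list or the one with the smallest p, and 12 partner factors. The comparison and the 29 lists (557 members) were chosen with earlier results of these data known. Same-numbered samples did not meet the criterion for pairing (every pair over 0.1): their deviations from the group means correlated between -0.12 and 0.51 over 18 pairs, 15 of them over 0.1. These pairs include arrays of different genotypes. Control resting and stimulated arrays of the same number correlated at 0.42, 0.43 and 0.51, and knockout ones at 0.004, 0.15 and 0.39. The sex markers also set both control replicate 1 arrays apart from the other control arrays, so a shared source of control pairs remains possible. The main fit does not pair them, and a block for replicate ended the calls of 10 of the 21 named genes followed, Ifng among them. Alternatives were 16 settings and the omission of each array.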

Additional observations from a re-analysis of the deposited data

Results flagged for a closer look

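The stimulation response of 33 features differed between knockout and control cells by the test of the difference itself, the interaction in limma with an adjusted p under 0.05. The named genes with a positive interaction (log2) were Ifng (4.01), Afp (3.25), Tgtp2 (2.96), Serpinb9 (2.42), Irgm2 (2.08), Zmat1 (1.98), Jade2 (1.93) and Irf1 (1.79). The unnamed probes with a positive one were A_30_P01022266 (2.75), A_30_P01032887 (2.60), A_55_P2106815 (2.48) and A_52_P1020860 (2.43).

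Among named genes, negative interactions were those of Hid1 (-4.44), Slc7a3 (-3.93), Jchain (-3.88), Plcd1 (-3.37), Bhlha15 (-3.32), Ckb (-3.06), Chac1 (-2.92), Nupr1 (-2.89), Mt1 (-2.74), Prr5l (-2.56), Endou (-2.38), Slamf9 (-2.28), Plpp5 (-2.27), Tmem37 (-2.18), Kcnk6 (-2.10) and Avpi1 (-1.93). Negative values of unnamed probes were those of A_55_P2066173 (-4.82), A_55_P2112302 (-3.25), A_55_P2107192 (-3.05), A_51_P288295 (-2.99) and A_55_P2001269 (-2.83). With 3 arrays per group, no array was tested for standing apart within its group.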

How the results depend on the processing

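With the replicate block, 33 features passed, 10 positive and 23 negative, 19 of them among the original 33. The calls of Ifng, Irgm2, Afp, Zmat1, Jade2, Chac1, Nupr1, Prr5l, Slamf9 and Plpp5 ended there, at adjusted p-values of 0.0537 to 0.0553. With the slide as a block 81 passed (31 positive, 50 negative, 68 with the larger control response), including all 33. Scaling to the percentile of detected spots gave 317 (177, 140 and 288), median scaling 10 (3, 7 and 7), quantile normalization 81 (32, 49 and 67) and normexp background 123 (53, 70 and 92). Probes detected on all 12 arrays gave 266 of 10275 tested (82, 184 and 227), trend and robust settings 335 (157, 178 and 290) and array weights 100 (32, 68 and 82). None passed on slide 1 only, with no filter (49286 tested) or without both control replicate 1 arrays, where 2262, 2868 and 1895 features had an unadjusted p under 0.05 in limma, the tool used throughout. Leaving out 1 array gave 0 to 130 in all, 0 to 29 positive, 0 to 101 negative and 0 to 110 with the larger control response. The other settings (series matrix values, mean of probes, every probe, a 2-fold limit) gave 33 to 37. The cause of these differences was not tested.

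Sub1 turned to 0.066 with the mean of its probes. Batf turned to 0.019 (detected spots), 0.015 (median), 0.005 (quantile), 0.067 (normexp), 0.012 (array weights) and 0.113 (without control replicate 1), and ran from -0.126 to 0.105 without 1 array. Spi1 ran from -0.286 to 0.024 without 1 array, turning without knockout resting replicate 1. Of 29 list medians, 19 kept their sign in every setting. Signal over background limits Slc7a3, and no setting gave a fold for it.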
